A study of Mus musculus with 8 samples.

Results

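The genes described here are 39 non-keratin genes of desmosomes, the cornified envelope and squamous layers, measured in mouse colon tumours. They were chosen by name as genes of squamous epithelium, with levels of these same tumours already known: that squamous markers such as Trp63 and Krtdap were higher in one genotype was in view when the list was written. Differences between the genotypes in these genes are therefore given as a description and not as a test. Of the 39 genes, 38 were found among the 38355 genes of the count tables. Flg, which encodes filaggrin, was not analysed here.

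Stratified squamous epithelium, the layered lining of skin, oesophagus and anal canal, is held together by desmosomes. These are junctions in which cadherins of the desmoglein (Dsg) and desmocollin (Dsc) families span the gap between cells, and plakoglobin, plakophilins and desmoplakin anchor them to keratin filaments. As its cells move up from the basal layer, where the transcription factor p63 is active, they make envelope proteins that transglutaminases crosslink under the membrane into a tough cornified shell. The colon is lined by a simple columnar epithelium, which has desmosomes of its own, built mainly with Dsg2, Dsc2 and Pkp2, but makes no cornified envelope.

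RNA was sequenced from 8 whole colon tumours, 1 per mouse. All 8 mice had received azoxymethane, a colon carcinogen, and all carried Trp53ΔIEC, in the field's notation a loss of the tumour suppressor gene Trp53 from intestinal epithelial cells. In 4 mice this was the whole genotype (Trp53ΔIEC), and the other 4 also carried AktE17K, an activating form of the kinase AKT (Trp53ΔIECAktE17K, called AktE17K tumours below, with replicate numbers from the labels). The sources used here do not give the driver of the deletion, the strain, the age or the position of the tumour in the colon. Each sample title also holds a letter whose meaning is unstated: it is B in 6 titles and A in those of AktE17K replicates 1 and 2. Each library held 18572180 to 26268547 reads assigned to genes. Levels are CPM, read counts scaled to the library size with TMM normalisation factors. The colon markers fixed for a check of the tissue (13 genes such as Epcam, Vil1 and Krt19) were present in every tumour, with a summed level of 11102 to 14105 CPM in Trp53ΔIEC and 8107, 9059, 6001 and 16979 CPM in AktE17K replicates 1 to 4. The epithelial gene Epcam was lower in every AktE17K tumour (2294 and 1518 CPM on average, edgeR adjusted p = 0.140), as was Vil1 (616.9 and 266.7 CPM, edgeR adjusted p = 0.138). Epcam and Vil1 were the only colon markers of the list without overlap between the groups. Over all genes with enough reads for the fit, 5.88% were lower and 8.34% higher without overlap. Muc2 (511.4 and 1050.6 CPM) and Krt20 (237.1 and 423.1 CPM) had higher means in AktE17K tumours, and the remaining markers lower ones. The part of these differences in the values below was not tested. Whole tumours mix cell types, so more squamous cells and more RNA per squamous cell cannot be told apart in any value below.

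The genes of the list fell into tiers by their level in the Trp53ΔIEC tumours, with cut-offs chosen after the values were seen. A first tier of 17 genes had at least 10 CPM in all 4 Trp53ΔIEC tumours; it held the plaque genes Dsp, Jup, Pkp1, Pkp2 and Pkp3, the cadherins Dsg2 and Dsc2, and also Perp, Sfn, Serpinb5, Anxa8, Ly6d, Sprr1a, Evpl, Ppl, Tgm1 and Tgm3. In a second tier 10 genes stayed under 1 CPM in all 4 of those tumours: Trp63, Krtdap, Calml3, Sprr1b, Sprr3, Dsg1a, Dsg1b, Dsc1, Gjb6 and Rhcg. The remaining 11 genes lay in between.

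The AktE17K tumours differed widely from each other. Replicates 1 and 4 had higher levels than replicates 2 and 3 in 35 of the 38 genes, and higher levels than all the other 6 tumours in 27. Replicate 1 exceeded every Trp53ΔIEC tumour in 32 genes and replicate 4 in 28, against 14 each for replicates 2 and 3. In the tier that was nearly silent in Trp53ΔIEC tumours, the median level was 30.4 CPM in AktE17K replicate 1 and 15.6 CPM in replicate 4, but 0.535 CPM in replicate 2 and 0.126 CPM in replicate 3. Replicate 3, which also had the lowest sum of colon markers, was below every Trp53ΔIEC tumour in 13 genes and replicate 2 in 9. The same counts were not made over all genes, so these describe the list only and nothing further is read from them.

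**Figure D1:**
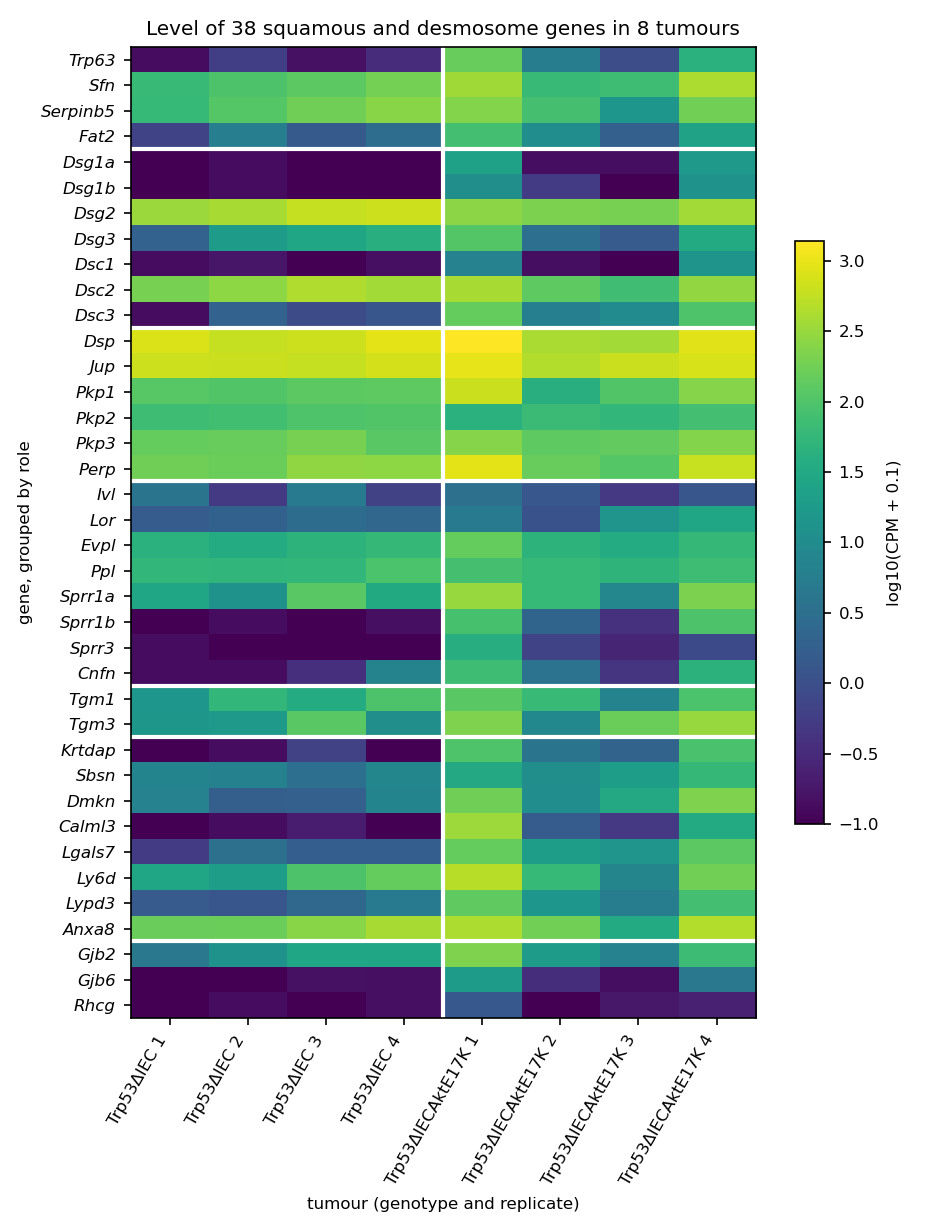
Level of the 38 genes (rows, grouped by role) in the 8 tumours (columns), as log10 of CPM + 0.1. The columns of AktE17K replicates 1 and 4 are the brightest of the AktE17K tumours in 35 of 38 rows, while the plaque genes Dsp and Jup are bright in every column.

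The stratified keratins, which are not on the list, followed the same order of tumours as a sum. The summed level of 11 of them was 102.4 to 222.0 CPM in Trp53ΔIEC tumours and 18513, 880.0, 240.0 and 3537 CPM in AktE17K replicates 1 to 4. In 9 of the 11, AktE17K replicates 1 and 4 were above the other 6 tumours. The exceptions were Krt10, lowest of the 8 tumours in AktE17K replicate 4 (3.63 CPM), and Krt4. Krt4 had 80.2 CPM in AktE17K replicate 2 against 22.6 CPM in replicate 4. Markers of other cell types were measured in the same libraries. Those of urothelium, another epithelium that expresses p63, summed to 4.94 to 11.1 CPM in Trp53ΔIEC and 4.58 to 12.7 CPM in AktE17K tumours over 5 genes. Hair follicle and sebaceous gland markers summed to 6.43 to 82.1 CPM in Trp53ΔIEC tumours and to 179.7, 40.2, 9.91 and 369.5 CPM in AktE17K replicates 1 to 4 over 11 genes. The hair keratin gene Krt35, the highest of these, had 0.651, 68.4, 0.168 and 41.1 CPM in Trp53ΔIEC and 25.2, 0.0823, 0.0420 and 165.4 CPM in AktE17K tumours, so it was also high in Trp53ΔIEC replicates 2 and 4, whose Trp63 was under 1 CPM. Krt31, another hair keratin gene, had at most 0.745 CPM in Trp53ΔIEC and 17.5, 0.0412, 1.05 and 115.7 CPM in AktE17K tumours. In AktE17K replicate 1 the largest parts of the sum were instead Tchh (58.7 CPM) and Padi3 (57.0 CPM). Tchh is also counted among the further envelope genes below. Of the sebaceous genes, Scd3 had 2.84 to 6.54 CPM in Trp53ΔIEC and 3.54 to 21.8 CPM in AktE17K tumours, highest in replicate 2, and Awat2 was at 0.838 to 2.59 CPM in all 8, while Mc5r had 2 reads in all. Markers of melanocytes, the pigment cells, summed to 1.63 to 6.09 CPM in Trp53ΔIEC and 2.55 to 3.73 CPM in AktE17K tumours over 5 genes, mostly from Pmel, with Dct at 0.0559 to 0.699 CPM and Tyr and Tyrp1 at 0 reads. The part of hair-bearing skin in the squamous levels was not tested.

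Promoters of 3 genes are printed to set a pair of related genes that differed in level beside the list gene with the largest fitted fold change. They come from the RefSeq promoter table on GRCm38.p6, and run from 250 bases before to 50 bases after the start. Krtdap and Sprr1b were both under 1 CPM in every Trp53ΔIEC tumour, and Sprr1a, the close relative of Sprr1b, was present in all of them. Capitals mark the TATA box letters TATAAA and the AP-1 letters TGANTCA.
Krtdap (chr7:30787655-30787954, plus strand): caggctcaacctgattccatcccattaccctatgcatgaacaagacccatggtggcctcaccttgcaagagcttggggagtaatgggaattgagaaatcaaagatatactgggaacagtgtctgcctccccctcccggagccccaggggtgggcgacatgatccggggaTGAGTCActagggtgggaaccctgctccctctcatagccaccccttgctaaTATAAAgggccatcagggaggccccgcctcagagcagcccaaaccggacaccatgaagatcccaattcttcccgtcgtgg
Sprr1a (chr3:92485832-92486131, minus strand): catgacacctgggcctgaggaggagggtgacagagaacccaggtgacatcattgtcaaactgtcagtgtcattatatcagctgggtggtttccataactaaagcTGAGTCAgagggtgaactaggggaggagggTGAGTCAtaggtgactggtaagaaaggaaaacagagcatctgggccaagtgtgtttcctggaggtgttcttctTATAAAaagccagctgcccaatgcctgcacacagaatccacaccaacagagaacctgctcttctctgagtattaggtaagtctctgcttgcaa
Sprr1b (chr3:92438730-92439029, minus strand): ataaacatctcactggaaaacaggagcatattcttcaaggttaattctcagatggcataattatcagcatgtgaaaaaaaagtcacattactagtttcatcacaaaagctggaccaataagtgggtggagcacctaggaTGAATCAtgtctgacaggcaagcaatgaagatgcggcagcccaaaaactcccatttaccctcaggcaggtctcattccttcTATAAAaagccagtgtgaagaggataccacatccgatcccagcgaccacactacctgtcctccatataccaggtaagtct

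All 3 promoters hold TATAAA, beginning 30 bases before the annotated start in Krtdap and Sprr1b and 43 bases before it in Sprr1a. AP-1 letters begin 81 bases before the start in Krtdap, 111 bases before it in Sprr1b, and 146 and 116 bases before it in Sprr1a. The promoters of Sprr1a and Sprr1b were identical at 167 of 278 aligned bases (60.1%). On both strands, TGANTCA was found in 8 of the 22 list genes that have a promoter in the table and a count here (Krtdap, Sprr1a, Sprr1b, Ivl, Lor, Sbsn, Dmkn and Serpinb5), and in 8.97% of all 27025 genes with a promoter. TATAAA was found in 7 of the 22 and in 15.7% of all genes, and the TFAP2 letters GCCNNNGGC in 4 of the 22 and in 18.55%. The marked motifs do not overlap each other in these 3 promoters, and a match is a description of the sequence and not a bound site.

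Basal layer regulators differed by gene. Trp63 (ENSMUSG00000022510, chromosome 16, 25683763 to 25892102, plus strand, GRCm38), which encodes p63, stood at 0.0383, 0.489, 0.0559 and 0.233 CPM in Trp53ΔIEC replicates 1 to 4 and at 150.9, 5.51, 0.840 and 44.4 CPM in AktE17K replicates 1 to 4, the order used throughout. The lowest AktE17K tumour lay above the highest Trp53ΔIEC tumour, and the AktE17K tumours spanned a 180-fold range. Its log2 fold change was 7.86 ± 1.73 (SE of the fit). Fat2, a giant protocadherin of basal keratinocytes, had 0.612 to 5.75 CPM in Trp53ΔIEC tumours and 80.9, 10.7, 1.76 and 24.3 CPM in AktE17K tumours, so that replicate 3 lay among the Trp53ΔIEC values.

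The other basal genes were already abundant in Trp53ΔIEC tumours. Sfn, which encodes the keratinocyte 14-3-3 protein stratifin, had 62.8, 94.4, 123.8 and 188.1 CPM in Trp53ΔIEC and 351.7, 64.8, 71.0 and 429.4 CPM in AktE17K tumours. Serpinb5, which encodes maspin, had 59.7, 110.6, 176.7 and 254.5 CPM and 234.9, 83.8, 14.8 and 181.0 CPM. For Serpinb5 all AktE17K tumours but replicate 3 lay within the Trp53ΔIEC range, and the log2 fold change was -0.23 ± 0.74. AktE17K replicate 3, with the lowest Serpinb5 level of the 8 tumours, also had the lowest Anxa8, Ly6d, Tgm1 and Sprr1a levels.

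The 7 desmosomal cadherin genes of the list lie within 643.6 kb of chromosome 18 (19960930 to 20604521, GRCm38), in the order Dsc3, Dsc2, Dsc1, Dsg1a, Dsg1b, Dsg3 and Dsg2. Dsg1c and Dsg4, which are not on the list, lie in the same span. Dsc2 and Dsg2, the cadherins of simple epithelium, were the abundant ones. Dsg2 had 330.7, 403.1, 601.5 and 657.5 CPM in Trp53ΔIEC and 261.4, 207.0, 195.8 and 373.1 CPM in AktE17K tumours, a log2 fold change of -0.94 ± 0.29. Only AktE17K replicate 4 lay within the Trp53ΔIEC range for Dsg2. Dsc2 had 197.3 to 447.1 CPM in Trp53ΔIEC tumours and 391.0, 131.7, 75.2 and 294.4 CPM in AktE17K tumours, with replicates 1 and 4 inside the Trp53ΔIEC range and replicates 2 and 3 below it.

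The cadherins of the lower layers of stratified epithelium, Dsc3 and Dsg3, differed from each other. Dsc3, of the basal layers, had 0.0383, 1.88, 0.782 and 1.16 CPM in Trp53ΔIEC tumours and 143.7, 6.09, 9.74 and 100.8 CPM in AktE17K tumours, without overlap and with a log2 fold change of 6.06 ± 1.33. Dsg3, the antigen of the blistering disease pemphigus vulgaris, had 1.91, 18.5, 27.6 and 40.2 CPM in Trp53ΔIEC and 108.5, 3.13, 1.43 and 34.1 CPM in AktE17K tumours. Here AktE17K replicates 2 and 4 lay inside and replicate 3 below the Trp53ΔIEC range, and the log2 fold change was 0.74 ± 1.27. Dsg3 and Dsc3 thus did not follow each other in the Trp53ΔIEC tumours, where Dsg3 was present without comparable Dsc3.

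Dsg1a, Dsg1b and Dsc1, the cadherins of the upper epidermal layers, were seen in AktE17K replicates 1 and 4. Dsg1a had 23.6 and 17.1 CPM in those tumours, Dsg1b 11.0 and 12.8 CPM and Dsc1 6.82 and 14.0 CPM, while every other tumour had at most 0.453 CPM of any of the 3. Over each group, Dsg1a had 1 read in Trp53ΔIEC and 928 reads in AktE17K tumours, a ratio of 917 scaled to library size (95% exact interval 164 to 36260, for counting error only). Dsg1a and Dsg1b are near-identical copies, so a read that matches both cannot be assigned to either and their levels are uncertain.

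**Figure D2:**
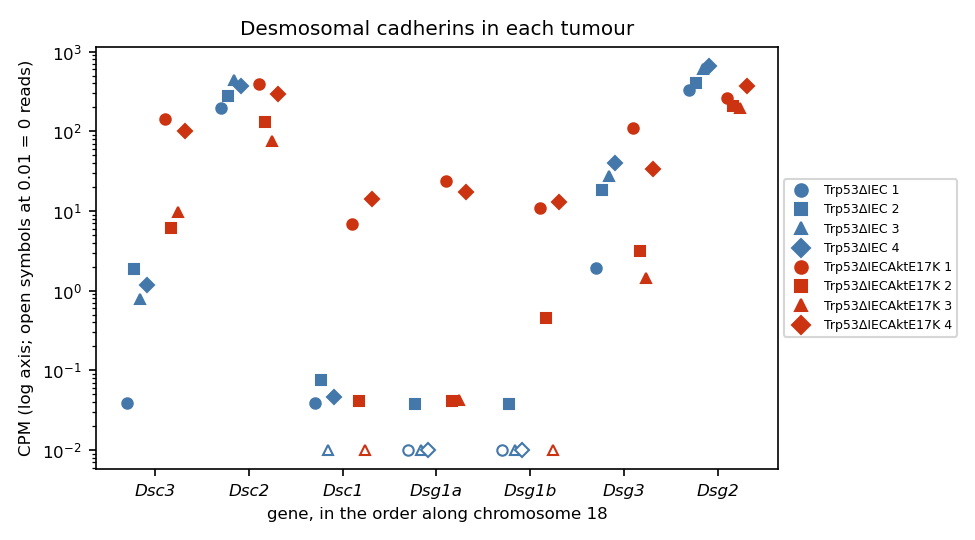
CPM (log axis) of the 7 desmosomal cadherin genes of the list in each tumour, in their order along chromosome 18; blue symbols are Trp53ΔIEC and red symbols AktE17K tumours, with 1 shape per replicate number, and open symbols at 0.01 stand for 0 reads. Dsc2 and Dsg2 lie at 75.2 CPM or more in all 8 tumours, while Dsc1, Dsg1a and Dsg1b exceed 0.453 CPM only in AktE17K replicates 1 and 4.

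The plaque genes, which simple and stratified epithelia share, were abundant in all tumours. Dsp, which encodes desmoplakin, had 830.8, 592.5, 677.4 and 923.8 CPM in Trp53ΔIEC and 1378, 407.4, 370.2 and 903.5 CPM in AktE17K tumours. The means were nearly equal at 756.1 ± 149.0 and 764.7 ± 475.5 CPM (SD, n = 4 each), but the AktE17K tumours lay on both sides of the Trp53ΔIEC values. Jup, the plakoglobin gene, had 664.9 ± 63.8 and 717.4 ± 222.9 CPM.

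Plakophilin genes differed in their order of tumours. Pkp1, the plakophilin of stratified epithelium, had 102.8 to 129.1 CPM in Trp53ΔIEC tumours and 651.7, 38.8, 104.3 and 246.6 CPM in AktE17K tumours. Pkp2, that of simple epithelium and heart, had 72.4, 78.2, 99.0 and 103.2 CPM in Trp53ΔIEC and 44.1, 65.9, 54.0 and 79.7 CPM in AktE17K tumours, a log2 fold change of -0.53 ± 0.21. AktE17K replicate 1, the highest of the 8 tumours for Pkp1, was the lowest for Pkp2. Pkp3, found in both kinds of epithelium, had 118.9 to 191.5 CPM in Trp53ΔIEC and 131.8 to 248.0 CPM in AktE17K tumours. Perp, a membrane protein of desmosomes, stood at 928.5 and 622.6 CPM in AktE17K replicates 1 and 4 and at 109.9 to 279.2 CPM in the other 6 tumours.

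Heart muscle also expresses Dsp, Jup, Dsg2 and Pkp2, and heart transcripts were present in these libraries. Over 10 heart markers the summed level was 36.9 to 115.2 CPM in Trp53ΔIEC and 160.4 to 228.9 CPM in AktE17K tumours. Of the 10, 7 were higher in every AktE17K tumour than in every Trp53ΔIEC tumour, as were 8.34% of all genes in the fit. The cardiac myosin gene Myh6 had 52.6, 47.6, 56.8 and 57.0 CPM in AktE17K tumours and at most 0.223 CPM in Trp53ΔIEC tumours. The marker with the highest mean in Trp53ΔIEC tumours, Myl7, did not follow it, with 11.1 to 101.9 CPM in Trp53ΔIEC and 10.4 to 58.8 CPM in AktE17K tumours, and Tnnt2 overlapped between the groups as well. The part of heart RNA in the plaque gene levels was not tested.

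Envelope precursors ranged from silent to abundant. Sprr1a, a small proline-rich crosslinking protein, had 27.6, 13.2, 121.1 and 32.0 CPM in Trp53ΔIEC and 316.1, 58.8, 8.27 and 212.6 CPM in AktE17K tumours. Its relative Sprr1b, whose promoter is printed above, had 2 reads in all 4 Trp53ΔIEC tumours together but 84.9, 2.06, 0.294 and 97.2 CPM in AktE17K tumours, a ratio of 2051 (95% exact interval 567 to 16940). Both genes had their highest levels in AktE17K replicates 1 and 4, while only Sprr1a of the pair exceeded 0.0465 CPM in Trp53ΔIEC tumours. As they are similar copies, reads shared between them leave both levels uncertain. Sprr3, typical of oesophageal epithelium, reached 37.2 CPM in AktE17K replicate 1 and at most 0.745 CPM in any other tumour.

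Cnfn (cornifelin) had 70.9, 3.62, 0.336 and 45.5 CPM in AktE17K tumours, and 6.98 CPM in Trp53ΔIEC replicate 4 against at most 0.279 CPM in the other Trp53ΔIEC tumours. Lor, which encodes loricrin, the main protein of the epidermal envelope, had 1.53 to 2.79 CPM in Trp53ΔIEC tumours and 5.21, 0.988, 14.3 and 28.3 CPM in AktE17K tumours. For Lor the order of tumours was thus another one, with replicate 3 above replicate 1. Ivl, the involucrin gene, stayed low throughout, with 3.87, 0.414, 5.20 and 0.558 CPM in Trp53ΔIEC and 0.378 to 3.22 CPM in AktE17K tumours. The scaffold genes Evpl and Ppl, which tie the envelope to desmosomes, had 34.6 to 57.9 and 52.4 to 91.0 CPM in Trp53ΔIEC tumours; Evpl reached 143.6 CPM in AktE17K replicate 1, and Ppl had 48.7 to 83.1 CPM in AktE17K tumours.

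The crosslinking enzymes had different orders of tumours. Tgm3 had 15.3, 17.1, 121.6 and 11.2 CPM in Trp53ΔIEC and 219.5, 8.40, 162.8 and 313.1 CPM in AktE17K tumours, so AktE17K replicate 3 was among the high tumours and replicate 2 was the lowest of all 8. Tgm1, the transglutaminase of keratinocyte membranes, had 14.8 to 96.6 CPM and 120.9, 64.4, 7.01 and 92.8 CPM, with replicate 3 the lowest.

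Among the suprabasal secreted and surface genes, the 7 of 8 with enough reads for the fit had a median log2 fold change of 4.54. Krtdap, a secreted protein of differentiating keratinocytes, had 0, 0.0376, 0.559 and 0 CPM in Trp53ΔIEC and 99.1, 3.87, 2.02 and 90.0 CPM in AktE17K tumours, a log2 fold change of 8.52 ± 1.82. Lgals7, the galectin of stratified epithelium, had 0.421, 3.27, 1.62 and 1.63 CPM and 146.7, 20.1, 14.4 and 122.7 CPM (5.44 ± 0.99). Dmkn (dermokine) had 6.70, 1.69, 1.73 and 7.21 CPM and 175.1, 10.7, 30.8 and 217.5 CPM (4.64 ± 1.05). In all 3 genes every AktE17K tumour was above every Trp53ΔIEC tumour, replicates 2 and 3 included.

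The same held for Sbsn (suprabasin), at 3.18 to 7.96 CPM in Trp53ΔIEC and 10.9 to 58.0 CPM in AktE17K tumours, and for Lypd3, an adhesion protein, at most 5.12 CPM in Trp53ΔIEC and at 5.29 to 134.8 CPM in AktE17K tumours. Sbsn, Dmkn and Krtdap lie within 39.6 kb of chromosome 7 (30751471 to 30791097). Calml3, a calmodulin-like protein of epithelium, had 345.5 CPM in AktE17K replicate 1, 33.9 CPM in replicate 4, at most 1.48 CPM in the other AktE17K tumours and 3 reads over the Trp53ΔIEC group. Ly6d and Anxa8, in contrast, were at 20.9 to 147.1 and 156.3 to 394.4 CPM in Trp53ΔIEC tumours, and AktE17K replicate 3 lay below those ranges for both (7.60 and 34.2 CPM).

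Of the channel and transporter genes, Gjb2 (connexin 26) had 4.40, 12.6, 28.3 and 27.1 CPM in Trp53ΔIEC and 221.5, 18.9, 6.68 and 68.4 CPM in AktE17K tumours. Gjb6 (connexin 30), which lies with Gjb2 within 35.0 kb of chromosome 14, had 2 reads over the Trp53ΔIEC group and 18.6 and 4.47 CPM in AktE17K replicates 1 and 4. The ammonia transporter gene Rhcg, an oesophageal gene, did not exceed 1.27 CPM in any tumour.

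Length-scaled levels (mean CPM per kb of exon) put different genes on top in each group. In Trp53ΔIEC tumours Anxa8 (128.0), Perp (113.5), Jup (103.3) and Ly6d (97.3) were highest, and in AktE17K tumours Ly6d (252.3), Perp (231.9), Sprr1a (184.8) and Anxa8 (147.3), where replicates 1 and 4 carry most of the mean. On this scale Krtdap was at 71.8 and Lgals7 at 81.9 in AktE17K tumours, near Dsp at 79.2, whereas Trp63 was at 6.01.

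Across all 16539 genes with enough reads for the fit, edgeR's quasi-likelihood test (adjusted p under 0.05, Benjamini-Hochberg) called 3.44% higher and 0.756% lower in AktE17K tumours. Of the 38 genes 30 had enough reads, and 5 of those (Trp63, Dsc3, Krtdap, Dmkn and Lgals7) were among the genes called higher and 0 among those called lower. At an unadjusted p under 0.05 the numbers were 9 higher and 2 lower, and 12.8% and 8.07% of all genes were higher and lower at that threshold. Groups without overlap were found in 7 of the 30, all higher, against 8.34% (higher) and 5.88% (lower) of all genes. Nothing is read from these counts, since the list was written with this contrast known. Genes nearly silent in Trp53ΔIEC tumours, such as Trp63 and Krtdap, could also enter the fit only through the AktE17K tumours. In addition, 8 genes of the list were left out of the fit because too few tumours had enough reads. Among them were genes high in AktE17K replicate 1, such as Calml3 (345.5 CPM there) and Sprr1b (84.9 CPM there). The median log2 fold change of the 30 was 1.09, beside 0.01 for all genes, and the same limits apply to it. DESeq2, run on all genes without the read filter, called 15 of the 38 higher and 1 lower, some of them outside the 30. Over all 38355 genes it called 1715 higher and 764 lower. Among the 30, limma-voom called 0. Leaving out any Trp53ΔIEC tumour or AktE17K replicate 1 left 0 calls in edgeR, leaving out AktE17K replicate 4 left 1, replicate 2 left 4, and replicate 3 gave 9. The read filter was rerun for each of these fits, so list genes outside the 30 could enter them. Counts over all genes for these fits are given as ranges in the last section. Without AktE17K replicates 1 and 4, edgeR called 0, and Trp63 had a log2 fold change of 3.87. A fit with the title letter as a covariate called 0, as did one on the 6 tumours with letter B. Letter A occurs only in AktE17K replicates 1 and 2, so both fits take the genotype difference from AktE17K replicates 3 and 4. They are therefore not separate checks.

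**Figure D3:**
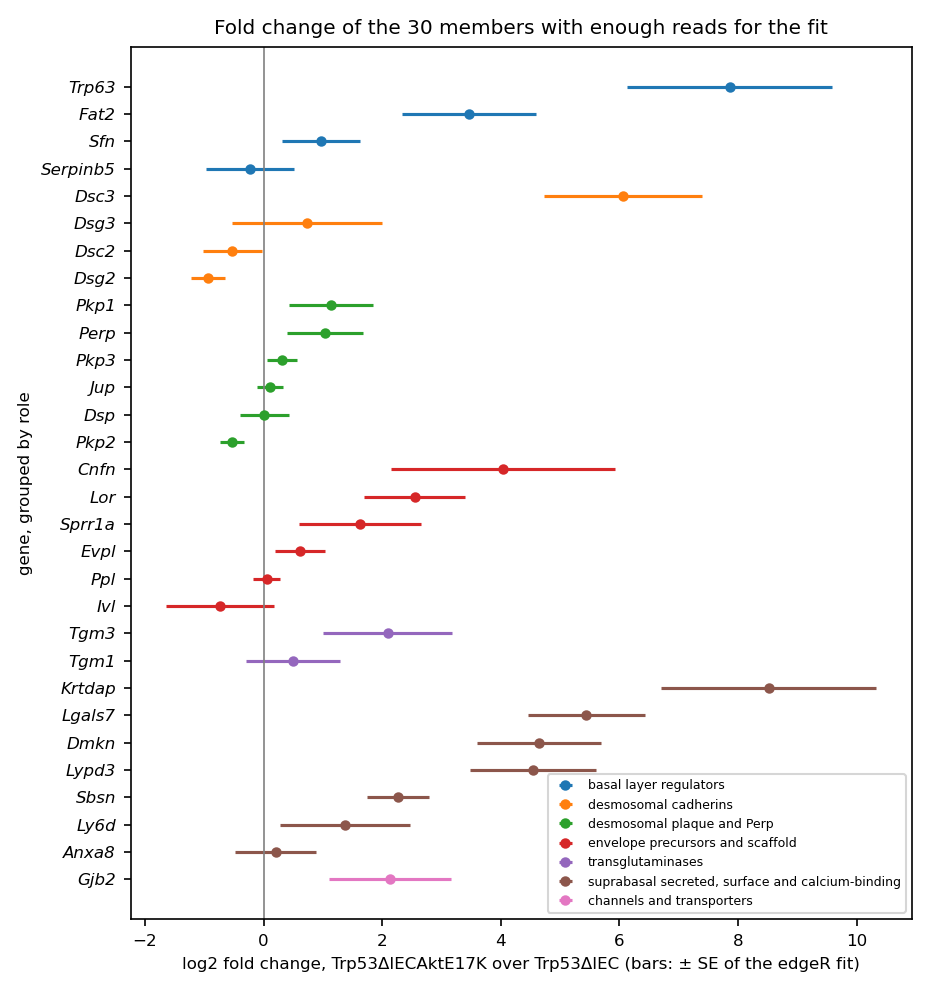
Log2 fold change of AktE17K over Trp53ΔIEC tumours with its SE (bars) for the 30 genes in the fit, coloured by role. Krtdap (8.52) and Trp63 (7.86) lie far to the right, and Dsg2, Pkp2, Dsc2, Ivl and Serpinb5 lie left of 0.

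Genes of the neighbouring junctions, which are not on the list, were compared in the same fit. Adherens junctions join epithelial cells through classical cadherins, and 1 of 10 of their genes rose and 0 fell in edgeR (3.44% and 0.756% over all genes). At an unadjusted p under 0.05 in edgeR, 2 were higher and 4 lower (12.8% and 8.07% over all genes). DESeq2 called 2 higher and 2 lower (1715 and 764 of all 38355 genes). By limma-voom 1 was higher and 0 lower (432 and 115 over the 16539 genes of the fit). The gene that rose was Cdh3, which encodes P-cadherin of basal cells, with 3.48, 6.32, 7.37 and 11.9 CPM in Trp53ΔIEC and 71.8, 29.9, 35.6 and 42.3 CPM in AktE17K tumours (log2 fold change 2.63 ± 0.42, adjusted p = 0.0205 in edgeR). Every AktE17K tumour exceeded every Trp53ΔIEC tumour. Cdh3 kept its call in 6 of the 8 fits that left out 1 tumour (edgeR adjusted p 0.0242 to 0.0769), losing it without Trp53ΔIEC replicate 2 or 3. With the title letter in the edgeR fit, the genotype difference rests on AktE17K replicates 3 and 4. The adjusted p of Cdh3 was then 0.0894. Its level in AktE17K replicates 2 and 3 was close to that in replicate 4, unlike Trp63. The median log2 fold change of the 10 genes was -0.30, and 7 were below 0.

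Of 9 hemidesmosome genes, which fix basal cells to the basement membrane, 0 passed in edgeR (3.44% higher and 0.756% lower over all genes). At an unadjusted p under 0.05 in edgeR, 1 was higher and 1 lower (12.8% and 8.07% over all genes). DESeq2 called 1 of the 9, Dst, higher (1715 of all 38355 genes), and limma-voom called 0. Dst encodes dystonin, a plakin linker, and had 39.8 to 79.4 CPM in Trp53ΔIEC and 87.9 to 181.3 CPM in AktE17K tumours (edgeR adjusted p = 0.0643). Itga6, the basal integrin gene, had 347.6 to 542.8 and 165.2 to 415.9 CPM (edgeR adjusted p = 0.207).

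Further squamous genes outside the list, 61 of 109 with enough reads, gave 7 that rose and 0 that fell in edgeR (3.44% and 0.756% over all genes). At an unadjusted p under 0.05 in edgeR, 27 were higher and 2 lower (12.8% and 8.07% over all genes). Nothing is read from these counts, since these lists too were written with this contrast known. Genes nearly silent in Trp53ΔIEC tumours, such as Crabp2 and Sprr2g, could also enter the fit only through the AktE17K tumours. DESeq2, run on all genes without the read filter, called 39 higher and 2 lower, some of them outside the 61. Over all 38355 genes it called 1715 higher and 764 lower. Within the 61, limma-voom called 0. By list, edgeR called higher 1 of 15 further envelope genes and 1 of 12 barrier and desquamation genes. It also called 1 of 20 transcription factors and 4 of 14 suprabasal secreted and surface genes, beside 3.44% of all genes. Crabp2, a retinoic acid binding protein, had 0.112 to 0.279 CPM in Trp53ΔIEC and 57.0, 5.43, 2.27 and 26.5 CPM in AktE17K tumours (log2 fold change 6.91 ± 1.16, adjusted p = 0.0228). Sprr2g, a small proline-rich protein gene, had 0.0765 to 0.186 CPM and 7.20, 1.69, 0.546 and 9.22 CPM (edgeR adjusted p = 0.0275).

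Tfap2a, a regulator active in epidermis, had 0.263 to 0.698 CPM in Trp53ΔIEC and 46.2, 7.37, 0.672 and 17.1 CPM in AktE17K tumours (adjusted p = 0.0434), where replicate 3 lay within the Trp53ΔIEC range. The kallikrein protease gene Klk8 rose by a log2 fold change of 2.46, the fatty acid binding protein gene Fabp5 by 3.32, the serine protease inhibitor gene Serpinb2 by 5.75 and Endou by 4.24 (adjusted p = 0.0470, 0.0425, 0.0478 and 0.0279). Endou departed from the usual order, with 14.8 CPM in AktE17K replicate 3 against 11.3 CPM in replicate 1. Leaving out any 1 Trp53ΔIEC tumour left 0 calls in these 4 lists. Leaving out AktE17K replicate 1 left 1, Crabp2, and leaving out replicate 3 gave 15. The last section gives the ranges over all genes.

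AktE17K replicates 1 and 4, the tumours with high levels, differed from each other in which squamous genes they held. Each is a single library, so these differences have no replicate check. Sprr3 was 49.9-fold and Calml3 10.2-fold higher in replicate 1, and Trp63, Fat2, Dsg3 and Gjb2 were 3.40-, 3.33-, 3.18- and 3.24-fold higher there. Lor was 5.43-fold and Dsc1 2.06-fold higher in replicate 4. Among genes outside the list, the mucosal keratin gene Krt13 had 1841 CPM in replicate 1 and 326.5 CPM in replicate 4. Of 43 further envelope genes 26 were higher in replicate 4, against 11 of the 38 list genes. Some of the 26 rest on a few reads, such as Lelp1 with 0 reads in replicate 1 and 3 in replicate 4. The share over all genes was not computed.

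**Figure D4:**
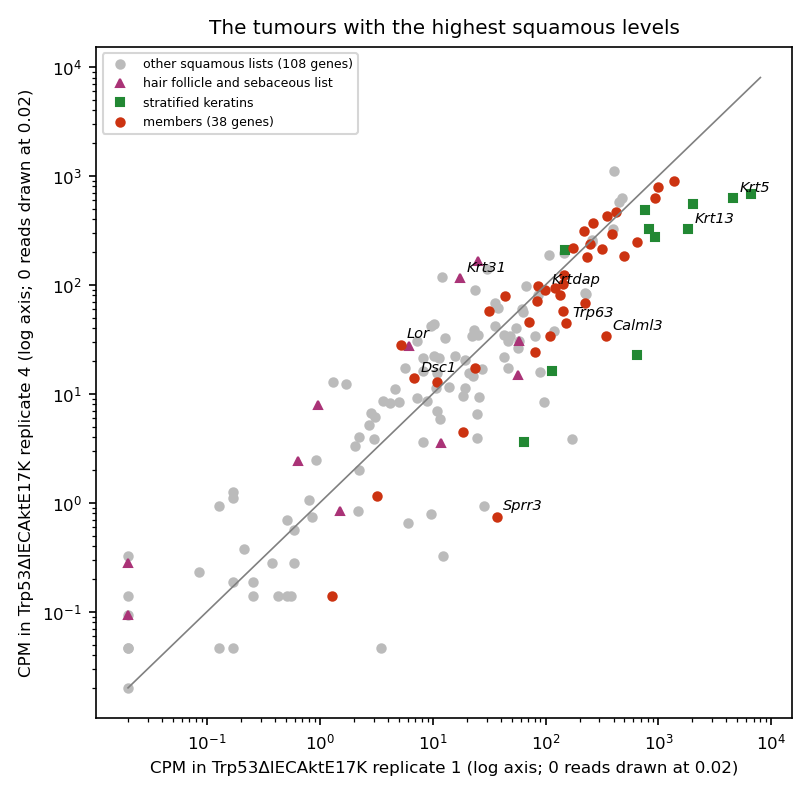
CPM in AktE17K replicate 1 (x axis) against replicate 4 (y axis), both on log axes, for the 38 list genes (red), other squamous genes (grey), stratified keratins (green squares) and hair and sebaceous markers (purple triangles); the line marks equal levels. Sprr3, Calml3 and Krt13 lie below the line and Lor, Dsc1 and Krt31 above it.

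The Trp53ΔIEC tumours also varied. Replicate 4 was the highest of the 4 in 19 of 38 genes. Replicate 1 was the lowest, or tied with another tumour at 0 reads, in 21. Krtdap was such a tie, with 0 reads in replicates 1 and 4. Sfn, Serpinb5 and Dsg3 were each lowest in replicate 1 and highest in replicate 4, and Serpinb5 and Dsg3 spanned 4.26- and 21.0-fold ranges. All 4 of these tumours were without AktE17K and had at most 0.489 CPM of Trp63. The cause of the variation in these 3 genes was not tested.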

How the data were processed

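The deposited values are counts of reads per Ensembl gene for each of 8 tumours, not normalised by the authors. Per the submitters' processing notes, the build was mm10 and HTSeq 0.6, STAR 2.3.0, DESeq2 1.8.1, CASAVA 1.8.2 and SAMtools 1.2 were used, with no role stated. The annotation release and the strand setting of the counting were not stated. Libraries were made with a TruSeq mRNA v2 kit, per the labels' protocols. The 5 closing lines of each table, which name no gene (45.4% to 51.5% of all lines' sum, mostly reads with several alignments), were left out. Symbols, positions and exon lengths came from GENCODE M21 (36602 of 38355 identifiers matched). Genes were kept by filterByExpr, scaled by TMM and tested with edgeR 4.0.16 in R 4.3.3 (robust quasi-likelihood, group as the only term, Benjamini-Hochberg over 16539 genes), after a check on simulated counts. The SE is the log2 fold change over the square root of F. DESeq2 1.42.0, limma-voom (limma 3.58.1), other scaling and filters, the title letter, the replicate number and leaving out tumours were alternatives.

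The members and lists were chosen with earlier results of these data known. All members may be named; those shown per tumour are up to 4 per role with the highest level and up to 2 more with the largest fold change, and any other was picked with its values in view; cell type markers are given by summed level, with single markers picked with their values in view. From each other list the text names up to 4 called genes with the smallest adjusted p, or 2 where none passed. Levels are CPM. Intervals are exact (Clopper-Pearson, 95%) and cover counting error only. With no molecular identifiers, PCR copies are not independent. Exons of Dsg2, Dsp, Lypd3 and Tgm1 overlap genes on the opposite strand over 3.99% to 13.6% of their length, where reads without strand cannot be assigned. Those of Sbsn overlap a gene on the same strand over 7.7%, where strand does not tell reads apart.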

Additional observations from a re-analysis of the deposited data

Results flagged for a closer look

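Among 80 groups of 4 tumours checked (30 list genes and 10 genes of the other lists, each in both genotypes), 3 held a tumour standing apart from the other 3 on the log2 scale, where chance flags about 1 in 20 groups. Ppl was highest in Trp53ΔIEC replicate 4, at 91.0 CPM. Itga6 was lowest in Trp53ΔIEC replicate 1, at 347.6 CPM, and Dst was highest in Trp53ΔIEC replicate 3, at 79.4 CPM.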

How the results depend on the processing

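The counts of calls given here are, in order, all genes higher, all genes lower, list genes, junction genes outside the list and other squamous genes, which edgeR put at 569, 125, 5, 1 and 7. RLE scaling gave 518, 128, 4, 1 and 7. DESeq2 gave 1715, 764, 16, 5 and 41, and limma-voom 432, 115, 0, 1 and 0. Keeping every gene with a read gave 516, 84, 1, 1 and 3, and a minimum of 1 CPM in 4 libraries 431, 93, 3, 1 and 4. The title letter as a covariate gave 90, 6, 0, 0 and 0, and the 6 tumours with letter B 22, 4, 0, 0 and 0. In both, the genotype difference rests on AktE17K replicates 3 and 4. Without AktE17K replicates 1 and 4 together the counts were 460, 223, 0, 0 and 5. Leaving out each tumour in turn gave ranges of 64 to 702, 10 to 247, 0 to 9, 0 to 2 and 0 to 15. Apart from the fits with fewer tumours or genes, the cause of these differences was not tested. With the replicate number as a block the counts were 48, 2, 1, 0 and 2; deviations of same-numbered tumours had correlations of -0.04, 0.01, -0.24 and 0.01, so the numbers were not taken to pair the tumours. No named gene that was called changed direction in any of these fits. Genes with a few reads in the Trp53ΔIEC group, such as Sprr1b and Calml3, are limited by depth, and their ratios rest on at most 3 reads there.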
